A study of Danio rerio with 20 samples.

Results

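The genes described here were 83 genes of the zebrafish retina whose RNA was lower in each of 5 libraries of sorted progenitors than in any of 15 libraries of sorted neurons. They were chosen from their measured values among 32520 genes. For each gene, counts were divided by the library total over all genes and scaled to CPM, counts per 1e+06 counts of the library. A gene was kept when its highest CPM in the 5 progenitor libraries lay below its lowest in the 15 neuron libraries, with a mean of at least 5 CPM over those 15. The limit on the mean was met by 8642 genes and the limit on the order of libraries by 104, of which 101 met both (1.17% of the 8642). From these, 17 genes were left out because all 5 libraries of 1 neuron group lay above all 15 others, 12 of them highest in photoreceptors, 5 in amacrine/horizontal cells and 0 in retinal ganglion cells. They included the photoreceptor transcription factors crx (on chromosome 5), NR2E3, six7 and NEUROD1. SNAP25, which codes for a protein of synaptic vesicle fusion, was left out by name. The values of neurons against progenitors are therefore a description of how the genes were chosen and carry no test.

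The embryos were sampled at 42 hours post fertilization and carried 3 fluorescent reporters of membranes. Red came from the line Tg(ath5:gap-RFP), cyan from the photoreceptor-lineage line Tg(crx:gap-CFP), and yellow from the driver and responder pair Tg(ptf1a:gal4,UAS:gap-YFP). Photoreceptors were sorted as ath5+, crx+ and ptf1a-, retinal ganglion cells as ath5+, crx- and ptf1a-, amacrine/horizontal cells as ath5+, crx- and ptf1a+, and progenitors as negative for all 3 reporters, with 5 libraries per group. All 4 groups shared the genotype, the age and the rearing temperatures, each replicate pooled 25 retinas, and 500 cells were sorted per library for amplified polyadenylated RNA (SmartSeq-2). A group is what its reporters selected: the progenitor gate takes every cell without a reporter signal, and amacrine and horizontal cells were not separated from each other.

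When a retinal progenitor leaves the cell cycle and becomes a neuron, it turns on genes for building an axon and dendrites, for moving and releasing vesicles and for keeping a membrane potential. Many of these genes are shared by neurons of all kinds and are called pan-neuronal. Stathmins, tubulins and the collapsin response mediator proteins act on microtubules in growing neurites, gap43 and the MARCKS-like proteins act on actin at the growth cone membrane, and the microRNA miR-124 is abundant in vertebrate neurons.

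Library totals were 21.2 to 30.8 M (1e+06) counts. The TMM factors, which scale libraries to each other for the tests, were 0.68 to 1.12, and the lowest was that of replicate 1 of the amacrine/horizontal cells. In that library the summed CPM of 7 blood and microglia genes was 1936, while it was 0.401 to 5781 in progenitors and at most 5.87 in the other 14 neuron libraries. The summed CPM of 21 markers of periocular mesenchyme, the connective tissue around the eye, was 1.89 to 19.3 in photoreceptors, 13.0 to 23.7 among retinal ganglion cells, 2.43 to 16.5 among amacrine/horizontal cells and 378 to 752 among progenitors. All 21 had at least 1 count in progenitors, whereas 4, 5 and 6 of them were at 0 in all libraries of the photoreceptor, the retinal ganglion and the amacrine/horizontal group. The summed CPM of 22 markers of retinal progenitors was 33691 to 58660 in photoreceptors, 26565 to 34419 among retinal ganglion cells, 22277 to 25907 among amacrine/horizontal cells and 25315 to 27279 among progenitors, so that this list did not set the progenitor libraries apart. For 11 markers of the retinal pigment epithelium the sum was 7.26 to 498 CPM among progenitors. It reached 12.2 in photoreceptors, 81.2 among retinal ganglion cells and 22.8 among amacrine/horizontal cells. For 4 endothelium markers the sum was 0.0446 to 23.5 CPM among progenitors, and it reached 2.23, 3.47 and 0.500 in the same neuron groups. The part of these other cell types in the values below was not tested. In bulk samples, fewer cells that express a gene and less RNA of it per cell cannot be told apart.

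Taken over their sum, the 83 genes made up 2.20 ± 0.112% of the counts in photoreceptors, 2.31 ± 0.323% among retinal ganglion cells, 2.65 ± 0.198% among amacrine/horizontal cells and 0.932 ± 0.0820% among progenitors (SD, n = 5 each). Of the 83 genes, 50 averaged at least 100 CPM over the neuron libraries, and their median was 141 CPM, against 28.6 CPM over the 8642 genes that met the same limit on the mean. Their summed exon length had a median of 2413 bases, against 2452 over all genes tested. In progenitors, 69 of the 83 genes had at least 1 count in all 5 libraries. A single count per library meets this, so it does not show that progenitor cells express the gene. Apart from epn1b, the mean of the neuron libraries was 1.605 to 116 times the progenitor mean, with a median of 3.40. It was under 2 for 16 of these 82 genes and at least 10 for another 16.

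**Figure D1:**
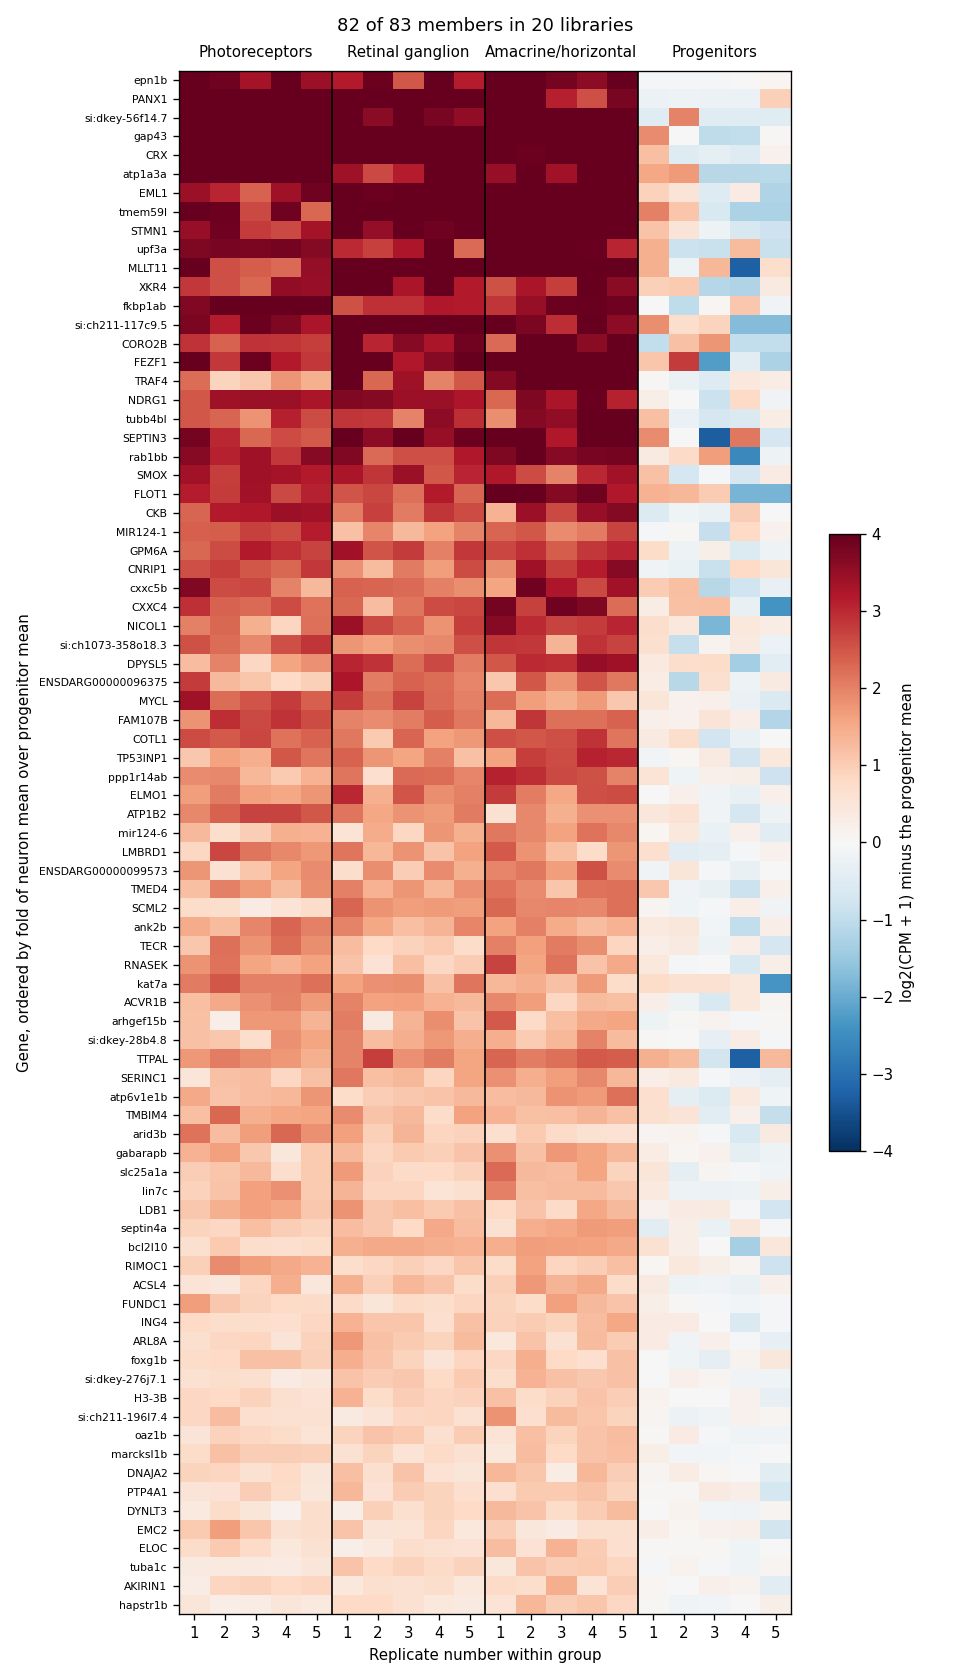
Each row is 1 of 82 of the 83 genes and each column 1 library, with replicates 1 to 5 of photoreceptors, retinal ganglion cells, amacrine/horizontal cells and progenitors. Colour is log2(CPM + 1) minus the gene's mean over the 5 progenitor libraries, cut off at 4 and -4; rows run from the largest fold of neurons over progenitors to the smallest. That all 3 neuron groups lie above progenitors was set by the rule.

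The gap between the groups was narrow for most of the genes. The lowest neuron library was at least 2 times the highest progenitor library for 15 of the 83, but less than 1.2 times for 43 and less than 1.1 times for 27. The genes just inside the limit were kat7a (14.5 CPM in the lowest neuron library and 14.4 in the highest progenitor library), TTPAL (24.8 and 24.6) and TMED4 (107 and 106). Just outside it lay GRPEL2 (81.4 and 81.5), fkbp1aa (927 and 929.6) and apoeb (13.93 and 13.99). At the limit on the mean, mir124-6, MIR124-1 and epn1b were the lowest genes with a symbol inside, with 7.75, 11.4 and 18.6 CPM over the neuron libraries, and MAPK10 lay outside with 4.62 CPM. Replicate 1 of the progenitors was the highest progenitor library for 33 of the 83 genes (39.8%), against 19.8% of the 8642 genes that met the limit on the mean. Without that library the rule found 116 genes, and without replicate 1 of the amacrine/horizontal cells it found 124.

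**Figure D2:**
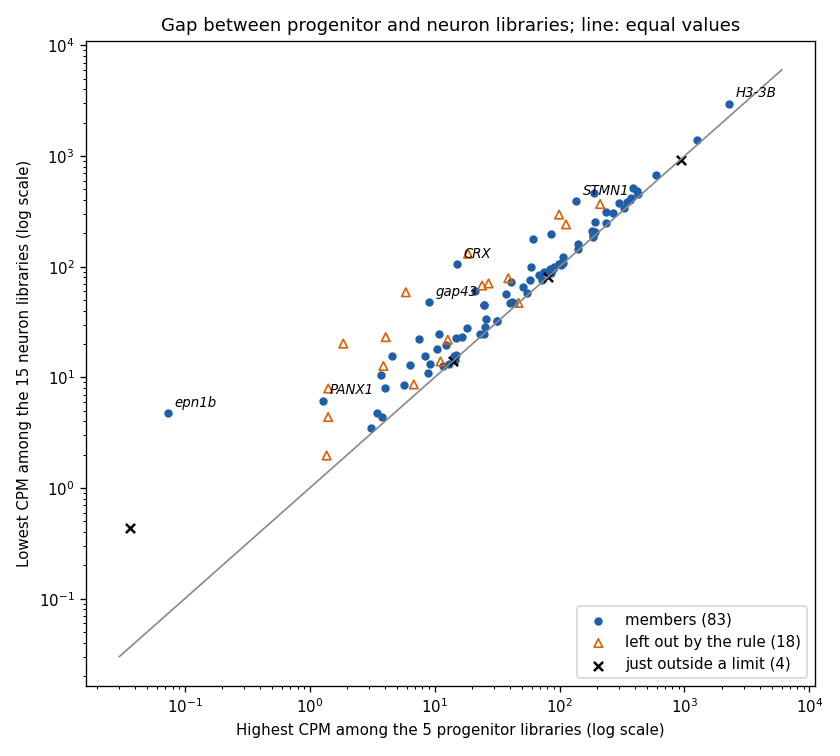
Each point is a gene, with its highest CPM among the 5 progenitor libraries on the horizontal axis and its lowest CPM among the 15 neuron libraries on the vertical axis, both on log scales. Members lie above the line of equal values by the rule, most of them close to it; epn1b stands farthest from it, and crosses mark the 4 genes just outside a limit.

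Because the rule set all neurons against progenitors, differences among the 3 neuron groups are the comparisons it used least. It does touch them, since genes highest in 1 group had been left out and a gene low in any 1 neuron library could not be kept. All 83 genes passed the filter on low counts. With edgeR's quasi-likelihood test (adjusted p under 0.05 over the 13838 genes), 15 of the 83 differed among the 3 neuron groups, where 6.46% of all genes did. Leaving out photoreceptor replicate 3 or 4 lowered that count to 9. The share of all genes called without those libraries is not given here, so the fall is not read as particular to the members. The median over the neuron libraries was 141 CPM for the members and 10.5 CPM for all genes tested. The shares of genes called, here and below, therefore compare genes of unlike level. The ratio of the highest to the lowest neuron group mean was 1.02 to 6.28, with a median of 1.58. Over the 8618 genes with a mean of at least 5 CPM and a lowest neuron group mean above 0, the median was 1.73. These were not matched to the members in level, and the rule itself removed genes highest in 1 neuron group or low in any neuron library.

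Most of the calls came from photoreceptors against amacrine/horizontal cells. In that comparison 21 of the 83 genes passed the threshold, 3 higher and 18 lower in photoreceptors, where 8.71% of all genes passed, 4.77% higher and 3.94% lower. The 12 genes left out as highest in photoreceptors and the 5 left out as highest in amacrine/horizontal cells do not enter the 21. All genes tested were not matched to the members in level. The median log2 fold change was -0.55 over the 83 genes and 0.04 over all genes tested, and it was below 0 for 67 of the 83 (80.7%), against 48.3% of all genes. The rule bears on this share, since it kept no gene with an amacrine/horizontal library at or below a progenitor library. All genes tested had no such removal. In CPM without TMM scaling the corresponding medians of log2(CPM + 0.5) differences were -0.31 and 0.18, and 0 of the 21 genes changed sign. Leaving out photoreceptor replicate 3, 4 or 5 each left 13 of the 83 past the threshold. The shares of all genes in those fits are not given here, so the fall is not read as particular to the members.

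Against retinal ganglion cells, photoreceptors differed in 5 of the 83 genes, 2 higher and 3 lower, where 2.11% of all genes passed, 0.838% higher and 1.27% lower, and the median log2 fold change was -0.01 over the 83 genes as over all genes. That count fell to 2 when either photoreceptor replicate 4 or retinal ganglion replicate 1 was left out, and was 8 without progenitor replicate 4. The shares of all genes in those fits are not given here, so these changes are not read as particular to the members. Between retinal ganglion cells and amacrine/horizontal cells edgeR's test found 0 of the 83 genes, where 0.824% of all genes passed, 0.6% higher and 0.224% lower. At an unadjusted p under 0.05 it found 27 of the 83 and 1915 of all 13838 genes, and DESeq2 found 13 and limma voom 7 at an adjusted p under 0.05. The shares of all genes that DESeq2 and limma voom called are not given here, so their counts are not read as particular to the members. With edgeR's test the count was 3 without amacrine/horizontal replicate 5, 2 without replicate 1 of that group, and 1 without retinal ganglion replicate 1, amacrine/horizontal replicate 4 or progenitor replicate 2. The shares of all genes with 1 library left out are not given here either. The log2 fold change was below 0 for 73 of the 83 genes (88.0%, against 47.4% of all genes), with a median of -0.46. The rule bears on this share, since it kept no gene with an amacrine/horizontal library at or below a progenitor library. An amacrine/horizontal library was the lowest neuron library for 27.7% of the members, against 62.7% of the 8642 genes that met the limit on the mean. All genes tested had no such removal, so the 2 shares are not like for like. In CPM without TMM scaling the medians of log2(CPM + 0.5) differences were -0.26 over the 83 genes and 0.18 over all genes. Of these differences, 78.3% were below 0 for the 83 genes and 39.9% for all genes.

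By group means, the order photoreceptors, retinal ganglion cells, amacrine/horizontal cells from low to high was found in 35 of the 83 genes (42.2%, against 18.4% of the genes tested). Amacrine/horizontal cells had the highest mean in 55 (66.3%, against 29.1%), photoreceptors in 21 and retinal ganglion cells in 7. The rule bears on this order too. It left out 12 genes as highest in photoreceptors, 5 in amacrine/horizontal cells and 0 in retinal ganglion cells. The shares over the genes tested had no such removal. Replicate 1 of the amacrine/horizontal cells was the lowest of the 15 neuron libraries for 37.0% of the 8642 genes but for 10.8% of the members, and genes that were low in it were not kept.

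**Figure D3:**
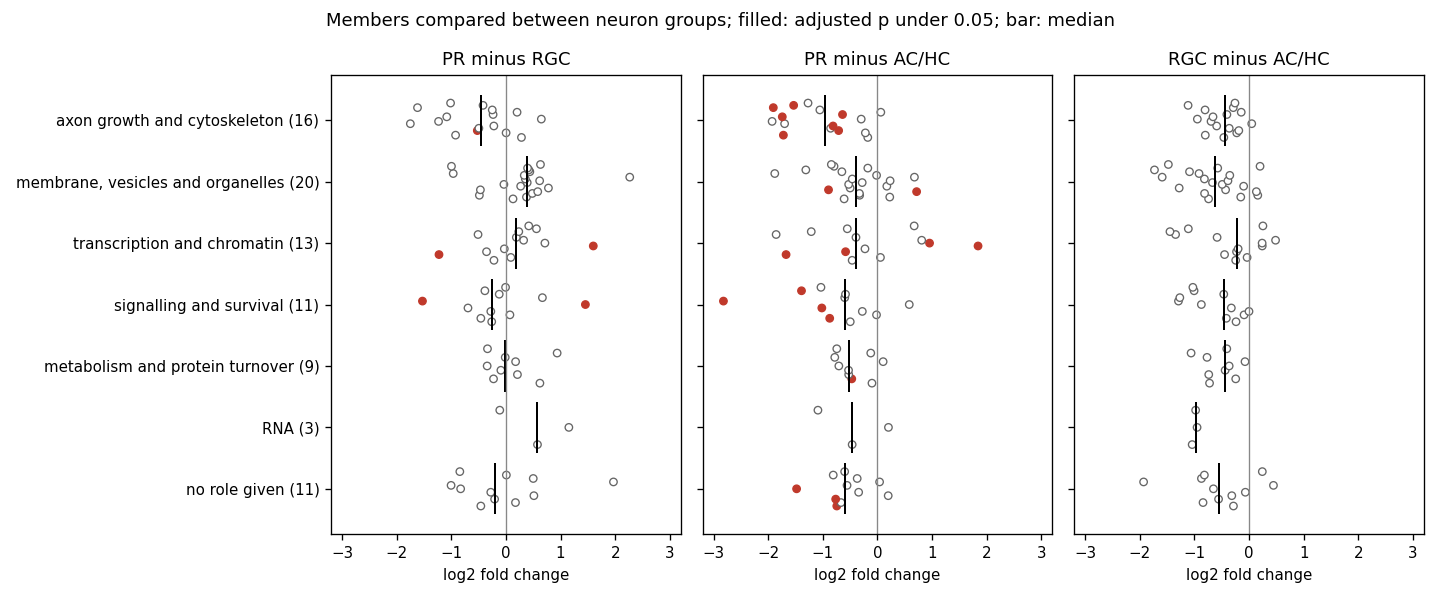
Log2 fold changes of the 83 genes in 3 comparisons, photoreceptors (PR) minus retinal ganglion cells (RGC), photoreceptors minus amacrine/horizontal cells (AC/HC) and retinal ganglion cells minus amacrine/horizontal cells, grouped by the role of the gene with the number of genes in brackets. Filled points passed an adjusted p under 0.05 (5, 21 and 0 genes) and bars mark medians; most cytoskeletal genes lie below 0 for photoreceptors against amacrine/horizontal cells.

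Among the 16 genes of axon growth and the cytoskeleton, 13 had their lowest neuron mean in photoreceptors and 14 their highest in amacrine/horizontal cells. Their median log2 fold change was -0.96 for photoreceptors against amacrine/horizontal cells, and 7 of the 16 passed as lower and 0 as higher. STMN1 (ENSDARG00000033655, chromosome 16, 34523515 to 34527206, plus strand, the zebrafish gene stmn1b), a stathmin that binds tubulin dimers, measured 697, 931, 428, 389.7 and 626 CPM in photoreceptors, 2071, 705, 1146, 917 and 1078 among retinal ganglion cells, 2388, 1212, 1504, 1784 and 1666 among amacrine/horizontal cells and 135, 89.1, 53.6, 39.4 and 34 among progenitors. Photoreceptor values lay below all amacrine/horizontal values and overlapped those of retinal ganglion cells, and replicate 1 was high in retinal ganglion cells, amacrine/horizontal cells and progenitors alike. The log2 fold change was -1.72 (SE 0.37, adjusted p = 0.00603) for photoreceptors against amacrine/horizontal cells and -0.92 (SE 0.37, adjusted p = 0.281) against retinal ganglion cells, where the adjusted p was 0.0394 with the range of the library's track number as a covariate.

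DPYSL5 (ENSDARG00000011141, chromosome 17, 36898874 to 36936856, minus strand, dpysl5a) codes for a collapsin response mediator protein of growth cones. It measured 61.2, 105, 46.6, 78.2 and 94.1 CPM in photoreceptors, 220.3, 196, 124, 164 and 109 among retinal ganglion cells, 147, 210.1, 206, 304 and 279.7 among amacrine/horizontal cells and 33.6, 42.4, 43.2, 9.36 and 18.2 among progenitors. All 5 photoreceptor libraries lay below both other neuron groups, and the difference from amacrine/horizontal cells was -1.74 (SE 0.33, adjusted p = 0.0021) on the log2 scale, while that from retinal ganglion cells, -1.08 (SE 0.33, adjusted p = 0.0985), did not pass. The second passed without progenitor replicate 4 (adjusted p = 0.0271), with limma voom (0.0239) and when only the groups compared were fitted (0.0215). EML1, a microtubule-associated protein, averaged 43.6 ± 16.1 CPM in photoreceptors, 136 ± 72.6 among retinal ganglion cells, 138 ± 30.3 among amacrine/horizontal cells and 4.1 ± 2.59 among progenitors (SD, n = 5 each), with a log2 fold change of -1.91 (SE 0.44, adjusted p = 0.0104) for photoreceptors against amacrine/horizontal cells.

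tuba1c (ENSDARG00000055216, chromosome 23, 35690657 to 35694461, minus strand), an alpha tubulin, had among the smallest folds over progenitors but a tight spread. It measured 485, 505, 491, 484 and 529 CPM in photoreceptors, 845, 662, 721, 656 and 720.5 among retinal ganglion cells, 521, 851, 753, 791 and 698 among amacrine/horizontal cells and 364, 418, 372, 349 and 411 among progenitors. Photoreceptors lay below all retinal ganglion libraries, and below all amacrine/horizontal libraries except replicate 1. Their log2 fold change was -0.71 (SE 0.12, adjusted p = 0.000587) against amacrine/horizontal cells and -0.52 (SE 0.12, adjusted p = 0.0176) against retinal ganglion cells, the second of which had an adjusted p of 0.055 without photoreceptor replicate 4 and 0.0505 without retinal ganglion replicate 1. Reads that fit several tubulin genes can be lost or misassigned in counting.

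A further 3 cytoskeletal genes, named after their values were seen, passed as lower in photoreceptors than in amacrine/horizontal cells. They were the beta tubulin tubb4bl (log2 fold change -1.54 (SE 0.46, adjusted p = 0.0425)), the dynein light chain DYNLT3 (-0.81 (SE 0.19, adjusted p = 0.0122)) and septin4a (-0.64 (SE 0.20, adjusted p = 0.0472)). DYNLT3 passed with any 1 library left out and missed when only the groups compared were fitted (adjusted p = 0.0565), whereas tubb4bl lost it in 16 and septin4a in 22 of the 27 alternatives. The adjusted p of septin4a reached 0.147 and that of tubb4bl 0.139.

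gap43, GPM6A and marcksl1b act at the membrane of growth cones. gap43 (ENSDARG00000099744, chromosome 15, 47161917 to 47176151, plus strand), a protein kinase C substrate, measured 103, 67, 70.0, 107 and 59.4 CPM in photoreceptors, 159, 75.3, 97.9, 88.7 and 67.5 among retinal ganglion cells, 47.7, 222, 164, 215 and 127 among amacrine/horizontal cells and 9.03, 1.73, 0.332, 0.357 and 1.79 among progenitors. Progenitor replicate 1 was the highest of its group, and amacrine/horizontal replicate 1 was the lowest neuron library. No comparison among neuron groups passed, with a log2 fold change of -1.06 (SE 0.59, adjusted p = 0.305) for photoreceptors against amacrine/horizontal cells, although limma voom gave that comparison an adjusted p of 0.0329. GPM6A (ENSDARG00000004621, chromosome 1, 38649141 to 38756904, minus strand, gpm6ab), a membrane glycoprotein that promotes neurite outgrowth, was the most even of the 83 genes across neuron groups. Its means were 777 ± 176 CPM in photoreceptors, 778 ± 257 among retinal ganglion cells, 791 ± 130.2 among amacrine/horizontal cells and 119 ± 43.2 among progenitors (SD, n = 5 each), and the neuron groups overlapped. marcksl1b, an actin-binding MARCKS-like protein, was the most abundant cytoskeletal member per length at 1224 CPM per kilobase of exon, and its means were 2078 ± 224 CPM in photoreceptors, 1702 ± 160.4 among retinal ganglion cells, 2095 ± 469 among amacrine/horizontal cells and 1059.99 ± 113 among progenitors. Its paralog marcksl1a, named after its values were seen, did not meet the rule. It had 84.2 CPM in its lowest neuron library and 235 in its highest progenitor library.

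MLLT11, a small protein enriched in developing neurons, and SEPTIN3, a neuronal septin named after its values were seen, had large differences that did not pass. MLLT11 measured 168, 57, 50.6, 45.1 and 108 CPM in photoreceptors, 364, 243, 336, 284 and 261 among retinal ganglion cells, 189.5, 305, 241, 293 and 238 among amacrine/horizontal cells and 24.9, 7.45, 23.2, 0 and 14.9 among progenitors. Photoreceptors lay below both other neuron groups in all 5 libraries. The log2 fold change was -1.70 (SE 0.69, adjusted p = 0.133) against amacrine/horizontal cells and -1.75 (SE 0.69, adjusted p = 0.275) against retinal ganglion cells, and without progenitor replicate 4, which had 0 counts, the adjusted p was 0.00542 and 0.0104. Both also passed with limma voom (0.000513 and 0.000936) and when only the groups compared were fitted (0.0229 and 0.0112). SEPTIN3 had a log2 fold change of -1.93 (SE 0.79, adjusted p = 0.141) for photoreceptors against amacrine/horizontal cells, and its adjusted p was 0.0266 without progenitor replicate 3, which also had 0 counts, 0.00731 with limma voom and 0.0154 when only the groups compared were fitted. An exon of SEPTIN3 overlaps atf7ip, and strand was ignored in counting.

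**Figure D4:**
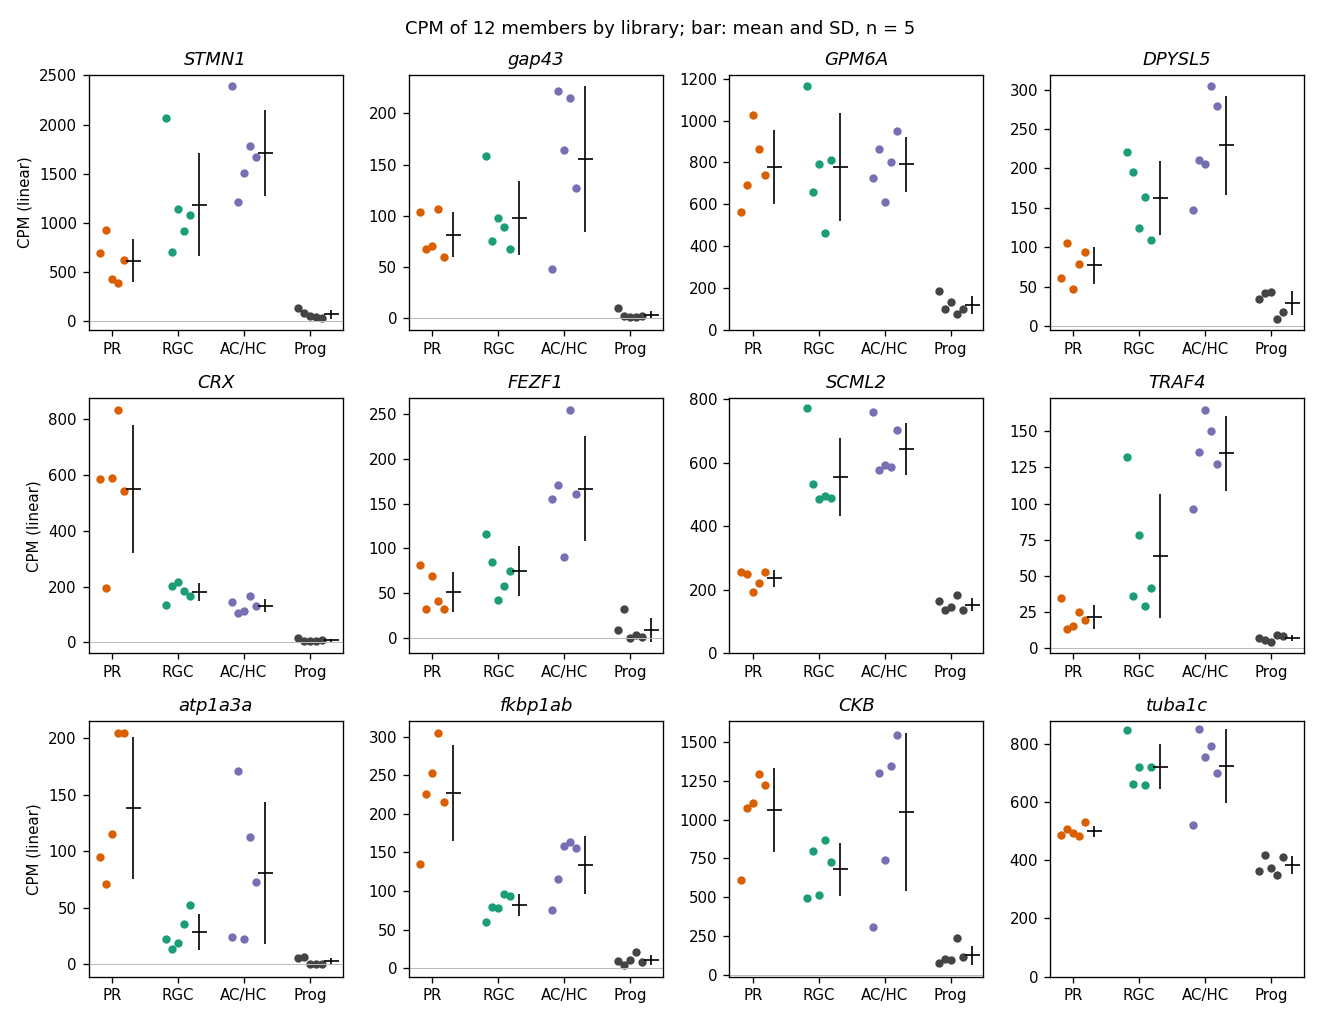
CPM on a linear scale for 12 of the genes, with 1 point per library in photoreceptors (PR), retinal ganglion cells (RGC), amacrine/horizontal cells (AC/HC) and progenitors (Prog); horizontal and vertical bars give the mean and SD, n = 5. STMN1, DPYSL5 and TRAF4 passed as lower in photoreceptors than in amacrine/horizontal cells, and GPM6A has the smallest ratio of neuron group means. The gene listed as CRX on chromosome 15 passed as higher in photoreceptors than in both other neuron groups.

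Of the 13 genes of transcription and chromatin, 2 were higher and 2 lower in photoreceptors than in amacrine/horizontal cells. The clearest of the 83 genes in this comparison by its p was SCML2 (ENSDARG00000012949, chromosome 11, 30106182 to 30158609, minus strand), known in mammals as a Polycomb group protein. It measured 257, 251, 194, 221 and 255 CPM in photoreceptors, 772, 533, 487, 496 and 490.03 among retinal ganglion cells, 758, 576, 591, 586 and 703 among amacrine/horizontal cells and 165, 135, 145, 185 and 138 among progenitors. Every photoreceptor library lay below every other neuron library, at a level just above progenitors, and retinal ganglion and amacrine/horizontal values overlapped. In photoreceptors the log2 fold change was -1.67 (SE 0.19, adjusted p = 1e-05) against amacrine/horizontal cells and -1.23 (SE 0.19, adjusted p = 0.000773) against retinal ganglion cells, and it was -0.45 (SE 0.19, adjusted p = 0.253) for retinal ganglion cells against amacrine/horizontal cells.

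The gene listed under the symbol CRX on chromosome 15 (ENSDARG00000043483, chromosome 15, 47903864 to 47909281, plus strand) is distinct from crx on chromosome 5 and was kept because names were dropped by exact spelling. The symbol is that of a vertebrate homeobox factor of photoreceptors, and no single zebrafish name was matched to the gene on chromosome 15. That gene measured 586, 196, 588, 835 and 542 CPM in photoreceptors, 135, 201, 215, 185 and 167 among retinal ganglion cells, 143, 105, 114, 166 and 129.8 among amacrine/horizontal cells and 15.1, 3.92, 4.48, 3.83 and 6.89 among progenitors. Photoreceptor replicate 2 overlapped the retinal ganglion libraries, which is why the gene was not left out, and the other 4 photoreceptor libraries were higher than all others. For photoreceptors, the log2 fold change was 1.84 (SE 0.37, adjusted p = 0.00336) against amacrine/horizontal cells and 1.5996 (SE 0.37, adjusted p = 0.0189) against retinal ganglion cells. The second call was lost without photoreceptor replicate 4 (adjusted p = 0.059), retinal ganglion replicate 1 (0.0631) or retinal ganglion replicate 5 (0.0507). The photoreceptor mean was 80.3 times, the retinal ganglion mean 26.4 times and the amacrine/horizontal mean 19.2 times the progenitor mean.

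arid3b, a DNA-binding protein of the ARID family, was also higher in photoreceptors. Its means were 307 ± 85.7 CPM in photoreceptors, 189 ± 46.8 among retinal ganglion cells, 138 ± 19.1 among amacrine/horizontal cells and 84.4 ± 19.4 among progenitors (SD, n = 5 each), with a log2 fold change of 0.95 (SE 0.23, adjusted p = 0.0144) for photoreceptors against amacrine/horizontal cells. ING4, a chromatin reader named after its values were seen, was lower, with -0.58 (SE 0.17, adjusted p = 0.0341), and lost its call in 11 of 27 alternatives, where its adjusted p reached 0.0952. FEZF1, a zinc finger repressor of forebrain development likewise named after its values were seen, measured 81.2, 32.4, 69.6, 41.3 and 32.2 CPM in photoreceptors, 116, 84.3, 42.4, 57.4 and 74.6 among retinal ganglion cells, 155, 171, 90.7, 255 and 160.4 among amacrine/horizontal cells and 9.03, 31.8, 0, 2.54 and 0.952 among progenitors. Progenitor replicate 2 stood at 31.8 CPM, just under the lowest neuron library, and the log2 fold change of -1.86 (SE 0.83, adjusted p = 0.181) for photoreceptors against amacrine/horizontal cells did not pass. It did with limma voom (adjusted p = 0.00237) and when only the groups compared were fitted (0.0108).

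foxg1b, a forkhead factor of the telencephalon and eye, and LDB1 (ldb1a), a cofactor of LIM-domain transcription factors, were nearly level among neurons. foxg1b averaged 466 ± 61.9 CPM in photoreceptors, 477 ± 117 among retinal ganglion cells, 477 ± 110.2 among amacrine/horizontal cells and 241 ± 55.6 among progenitors, so that its highest neuron group mean was 1.02 times its lowest. LDB1 averaged 785 ± 138 CPM in photoreceptors, 739 ± 174 among retinal ganglion cells, 668 ± 157 among amacrine/horizontal cells and 315 ± 86.3 among progenitors. H3-3B (ENSDARG00000033009, chromosome 5, 36944533 to 36949476, minus strand) was the most abundant member, with 1558 CPM per kilobase of exon over the neuron libraries, and codes for the replication-independent histone variant H3.3. It measured 3541, 3516, 3827, 3105 and 2976 CPM in photoreceptors, 5209.5, 3325, 3934, 3665 and 3782 among retinal ganglion cells, 4557, 3314, 3777, 4457 and 3974 among amacrine/horizontal cells and 2222, 1989.8, 2030.4, 2282 and 1582 among progenitors. The groups did not overlap with progenitors by the rule, the neuron mean was 1.88 times the progenitor mean, and the log2 fold change of -0.46 (SE 0.16, adjusted p = 0.0819) for photoreceptors against amacrine/horizontal cells did not pass, while its adjusted p was 0.0455 without amacrine/horizontal replicate 2 and 0.0475 with the range of the track number as a covariate. kat7a, a histone acetyltransferase at the edge of the rule, averaged 41 ± 6.04 CPM in photoreceptors, 30.8 ± 7.57 among retinal ganglion cells, 22.2 ± 5.5 among amacrine/horizontal cells and 10.7 ± 5.6 among progenitors, and progenitor replicate 5 stood apart at 0.843 CPM, where the other 4 had 11.5 to 14.4.

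The 20 genes of membranes, vesicles and organelles had a median log2 fold change of 0.38 for photoreceptors against retinal ganglion cells and -0.40 against amacrine/horizontal cells, with 0 and 2 genes past the threshold. They included both kinds of subunit of the sodium-potassium pump, which maintains the membrane potential. atp1a3a (ENSDARG00000018259, chromosome 19, 6328234 to 6385594, minus strand), its neuronal alpha subunit, measured 95.1, 70.5, 115, 205 and 204 CPM in photoreceptors, 22.5, 12.8, 18.9, 35.3 and 52 among retinal ganglion cells, 23.9, 171, 22.1, 112 and 72.6 among amacrine/horizontal cells and 5.62, 6.34, 0.0415, 0.0446 and 0.0733 among progenitors. All photoreceptor libraries lay above all retinal ganglion libraries, while amacrine/horizontal libraries spread over both ranges. Progenitor replicates 1 and 2 had 5.62 and 6.34 CPM and the other 3 had 1 or 2 counts each. Its log2 fold change of 2.27 (SE 0.93, adjusted p = 0.311) for photoreceptors against retinal ganglion cells did not pass. It did with limma voom (adjusted p = 0.0415) and when only the groups compared were fitted (0.00463).

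ATP1B2 (atp1b2a), a beta subunit of the same pump, averaged 319.7 ± 64 CPM in photoreceptors, 213 ± 37.4 among retinal ganglion cells, 175 ± 55 among amacrine/horizontal cells and 60.3 ± 21.2 among progenitors (SD, n = 5 each). The log2 fold change was 0.72 (SE 0.22, adjusted p = 0.0437) for photoreceptors against amacrine/horizontal cells, and the call was lost in 14 of 27 alternatives, where the adjusted p reached 0.109 without photoreceptor replicate 3. SERINC1, a multi-pass membrane protein named after its values were seen, was lower in photoreceptors than in amacrine/horizontal cells, with a log2 fold change of -0.90 (SE 0.24, adjusted p = 0.0233), and lost its call in 5 alternatives, with an adjusted p of up to 0.0694 without photoreceptor replicate 4.

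epn1b (ENSDARG00000079847, chromosome 19, 10375782 to 10395683, minus strand) had the widest gap of the 83 genes. It codes for an epsin, an adaptor of clathrin-coated vesicles. It measured 35.7, 14.2, 9.17, 20.3 and 9.93 CPM in photoreceptors, 8.2, 14.4, 4.74, 22.7 and 8 among retinal ganglion cells, 51.7, 38.9, 13.7, 11.1 and 16.3 among amacrine/horizontal cells and 0, 0, 0, 0.0446 and 0.0733 among progenitors. The 5 progenitor libraries held 3 counts in 128 M and the 15 neuron libraries 7210 in 377 M. The ratio of 814 rests on those 3 progenitor counts. It describes how the gene was chosen and carries no test. Within each neuron group the values spread several-fold. PANX1 (panx1b), a pannexin channel, had 4.80 times as many CPM in its lowest neuron library as in its highest progenitor library. It measured 42.8, 25.4, 41.2, 26.3 and 33.7 CPM in photoreceptors, 22.9, 20.1, 28.4, 30.9 and 28 among retinal ganglion cells, 63.4, 62, 9.3, 6.15 and 15.4 among amacrine/horizontal cells and 0, 0.0327, 0, 0 and 1.28 among progenitors. Amacrine/horizontal replicates 3 to 5 were low and replicates 1 and 2 high, and in progenitors replicate 5 alone exceeded 0.0327 CPM.

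The next genes were picked for their roles in autophagy, acidification and trafficking. gabarapb, a member of the Atg8 family that acts in autophagy and in receptor transport, averaged 644 ± 188 CPM in photoreceptors, 595 ± 71 among retinal ganglion cells, 837 ± 155 among amacrine/horizontal cells and 288 ± 51.7 among progenitors and had 518 CPM per kilobase of exon. Acidification of vesicles was represented by atp6v1e1b, a subunit of the vacuolar proton pump, and RNASEK, a protein associated with that pump, both named after their values were seen. RNASEK averaged 211 ± 46.3 CPM in photoreceptors, 124 ± 20.4 among retinal ganglion cells, 242 ± 112 among amacrine/horizontal cells and 64.6 ± 16.3 among progenitors, with amacrine/horizontal replicate 1 at 418 CPM, and atp6v1e1b averaged 93 ± 16.6 CPM in photoreceptors, 72.9 ± 10.5 among retinal ganglion cells, 114 ± 32.3 among amacrine/horizontal cells and 36.4 ± 13.6 among progenitors. A pair of other subunits of this pump, ATP6V0C (ENSDARG00000036577) and atpv0e2, were among the genes left out because they were highest in photoreceptors. Another gene listed as ATP6V0C (ENSDARG00000057853), named after its values were seen, did not meet the rule. It averaged 90.0 CPM in photoreceptors, 92.9 among retinal ganglion cells, 106.5 among amacrine/horizontal cells and 96.1 among progenitors. TMED4, a p24 protein of transport between the endoplasmic reticulum and the Golgi, averaged 157 ± 38.3 CPM in photoreceptors, 162 ± 33.2 among retinal ganglion cells, 196 ± 52.6 among amacrine/horizontal cells and 55 ± 30.6 among progenitors, and progenitor replicate 1, at 106 CPM, was the highest of its group.

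Of the 11 genes of signalling and survival, 4 were lower and 0 higher in photoreceptors than in amacrine/horizontal cells. TRAF4 (ENSDARG00000003963, chromosome 15, 15516612 to 15593263, plus strand, traf4a), an adaptor of tumour necrosis factor receptor signalling, had the largest difference among neuron groups. It measured 34.6, 13.2, 15.1, 25.1 and 19.4 CPM in photoreceptors, 133, 36.3, 78.1, 29.2 and 41.8 among retinal ganglion cells, 96.1, 135, 165, 150.5 and 127 among amacrine/horizontal cells and 6.92, 5.3, 4.35, 9.27 and 8.24 among progenitors. Photoreceptors lay below all amacrine/horizontal libraries and overlapped the retinal ganglion cells, where replicate 1 was the highest. A log2 fold change of -2.82 (SE 0.40, adjusted p = 0.000123) was found for photoreceptors against amacrine/horizontal cells. Against retinal ganglion cells it was -1.53 (SE 0.38, adjusted p = 0.0364), a call lost without photoreceptor replicate 2, 3, 4 or 5 or retinal ganglion replicate 1 or 3, with adjusted p-values of 0.0753 to 0.158. That call was also lost with no low-count filter (adjusted p = 0.0675), with limma voom (0.0821) and when only the groups compared were fitted (0.0518).

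fkbp1ab (ENSDARG00000033567, chromosome 23, 16688420 to 16692312, minus strand), an immunophilin of the FKBP12 type, was higher in photoreceptor libraries than among retinal ganglion cells. It measured 135, 226, 253, 305 and 215 CPM in photoreceptors, 60.3, 79.7, 78.5, 96.1 and 94 among retinal ganglion cells, 75.8, 116, 159, 163 and 156 among amacrine/horizontal cells and 9.68, 4.22, 10.03, 21 and 8.61 among progenitors. Photoreceptor and retinal ganglion libraries did not overlap, and the log2 fold change was 1.46 (SE 0.31, adjusted p = 0.0105). Its paralog fkbp1aa, more abundant, missed the rule narrowly, as given above. NDRG1 (ndrg1b), an N-myc downstream regulated gene, averaged 344 ± 80.6 CPM in photoreceptors, 413 ± 54 among retinal ganglion cells, 374 ± 148 among amacrine/horizontal cells and 37.8 ± 15.7 among progenitors, with photoreceptor replicate 1 and amacrine/horizontal replicate 1 low in their groups.

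A further 2 genes of signalling and survival that passed were named after their values were seen. bcl2l10, of the Bcl-2 family that controls apoptosis, averaged 114 ± 13.7 CPM in photoreceptors, 185 ± 6.47 among retinal ganglion cells, 201 ± 12.5 among amacrine/horizontal cells and 73.6 ± 30.0 among progenitors (SD, n = 5 each), with all photoreceptor libraries below all other neuron libraries. Its log2 fold change was -1.02 (SE 0.25, adjusted p = 0.0158) for photoreceptors against amacrine/horizontal cells. In the same comparison ppp1r14ab, an inhibitor of protein phosphatase 1, had a log2 fold change of -1.39 (SE 0.39, adjusted p = 0.0291). Its call was lost in 7 of 27 alternatives, where the adjusted p reached 0.0807 without photoreceptor replicate 4.

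Among the 9 genes of metabolism and protein turnover, 1 passed, oaz1b, which is named after its values were seen. CKB (ENSDARG00000043257, chromosome 20, 20816747 to 20821789, minus strand, ckbb), the brain-type creatine kinase that buffers ATP, measured 609, 1075, 1107, 1293 and 1225 CPM in photoreceptors, 494, 797, 513, 868 and 729 among retinal ganglion cells, 312, 1302, 743, 1343 and 1544 among amacrine/horizontal cells and 81.7, 106, 99.9, 237 and 119 among progenitors. Replicate 1 was the lowest library of each group, and progenitor replicate 4, at 237 CPM, was the highest progenitor library. Its log2 fold change of -0.10 (SE 0.30, adjusted p = 0.902) for photoreceptors against amacrine/horizontal cells did not pass. oaz1b, the antizyme that limits polyamine synthesis, averaged 774 ± 92.4 CPM in photoreceptors, 906 ± 116 among retinal ganglion cells, 952 ± 182 among amacrine/horizontal cells and 471 ± 70.8 among progenitors, with a log2 fold change of -0.47 (SE 0.12, adjusted p = 0.0223) for photoreceptors against amacrine/horizontal cells, and its call was lost in 10 of 27 alternatives, where the adjusted p reached 0.0883. SMOX, which oxidizes the polyamine spermine and is also named after its values were seen, averaged 106 ± 17.4 CPM in photoreceptors, 94.9 ± 24.1 among retinal ganglion cells, 85.6 ± 29.1 among amacrine/horizontal cells and 12 ± 7.67 among progenitors. TTPAL, related to the tocopherol transfer protein, averaged 31.8 ± 4.95 CPM in photoreceptors, 40.1 ± 14 among retinal ganglion cells, 46.1 ± 5.17 among amacrine/horizontal cells and 14.8 ± 11.5 among progenitors, and progenitor replicate 4 had 0 counts of it.

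Of 5 loci listed as miR-124 hairpins in the table, 2 met the rule. These are reads within the hairpin interval of polyadenylated RNA, so they measure precursor transcripts and not the mature microRNA. MIR124-1 (ENSDARG00000081311, chromosome 20, 38905531 to 38905613, minus strand) measured 12.5, 12.8, 16, 14.4 and 21.6 CPM in photoreceptors, 4.77, 8.85, 5.24, 6.7 and 9.07 among retinal ganglion cells, 11.7, 13.2, 8.4, 9.82 and 15.5 among amacrine/horizontal cells and 1.38, 1.63, 0.332, 3.43 and 1.87 among progenitors. mir124-6 (ENSDARG00000083622, chromosome 8, 23122762 to 23122874, minus strand) measured 6.52, 3.99, 5.1, 7.14 and 6.97 CPM in photoreceptors, 3.47, 7.51, 4.45, 9.34 and 7.19 among retinal ganglion cells, 12.2, 10.7, 8.23, 12.9 and 10.5 among amacrine/horizontal cells and 2.2, 3.07, 1.53, 2.54 and 1.28 among progenitors. In both the lowest neuron libraries were those of replicate 1 of the retinal ganglion cells. The loci mir124-5 on chromosome 23 and MIR124-2 on chromosome 24 did not follow, with 2.79 and 4.45 CPM in their lowest neuron library against 14.2 and 16.4 in their highest progenitor library, and mir124-1 on chromosome 21 was at 0 in all 20 libraries. upf3a, a factor of nonsense-mediated RNA decay named after its values were seen, averaged 24.4 ± 1.07 CPM in photoreceptors, 16.2 ± 9.02 among retinal ganglion cells, 28.9 ± 10.02 among amacrine/horizontal cells and 1.5 ± 2.04 among progenitors.

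The positions of the genes held a few neighbours. The 83 genes lay on 24 chromosomes, at most 8 on any 1. Within 100000 bases, mir124-6 had an unnamed member, ENSDARG00000099573 (chromosome 8, 23122151 to 23122372, minus strand), 389 bases away on the same strand with 0 genes between. That gene averaged 28.7 ± 9.59 CPM in photoreceptors, 28.5 ± 10.1 among retinal ganglion cells, 44.2 ± 10.7 among amacrine/horizontal cells and 10.02 ± 2.49 among progenitors (SD, n = 5 each). H3-3B began 8089 bases from the end of crx on chromosome 5, with 0 genes between, and crx was one of the genes left out as highest in photoreceptors.

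A group of 11 genes was given no role. si:dkey-56f14.7 measured 40.2, 135, 95.2, 55.9 and 57.8 CPM in photoreceptors, 21.4, 16.2, 26.2, 18.5 and 15.5 among retinal ganglion cells, 60.3, 43.2, 47.5, 110.2 and 64.2 among amacrine/horizontal cells and 0, 4.54, 0, 0 and 0 among progenitors, and its progenitor counts came from replicate 2 alone. Those that passed as lower in photoreceptors than in amacrine/horizontal cells were si:dkey-276j7.1 (-0.75 (SE 0.13, adjusted p = 0.00079) on the log2 scale), hapstr1b (-0.77 (SE 0.16, adjusted p = 0.00389)) and NICOL1 (-1.48 (SE 0.43, adjusted p = 0.0363)), all named after their values were seen. NICOL1 lost its call in 8 of 27 alternatives, where the adjusted p reached 0.0956 without photoreceptor replicate 4.

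**Figure D5:**
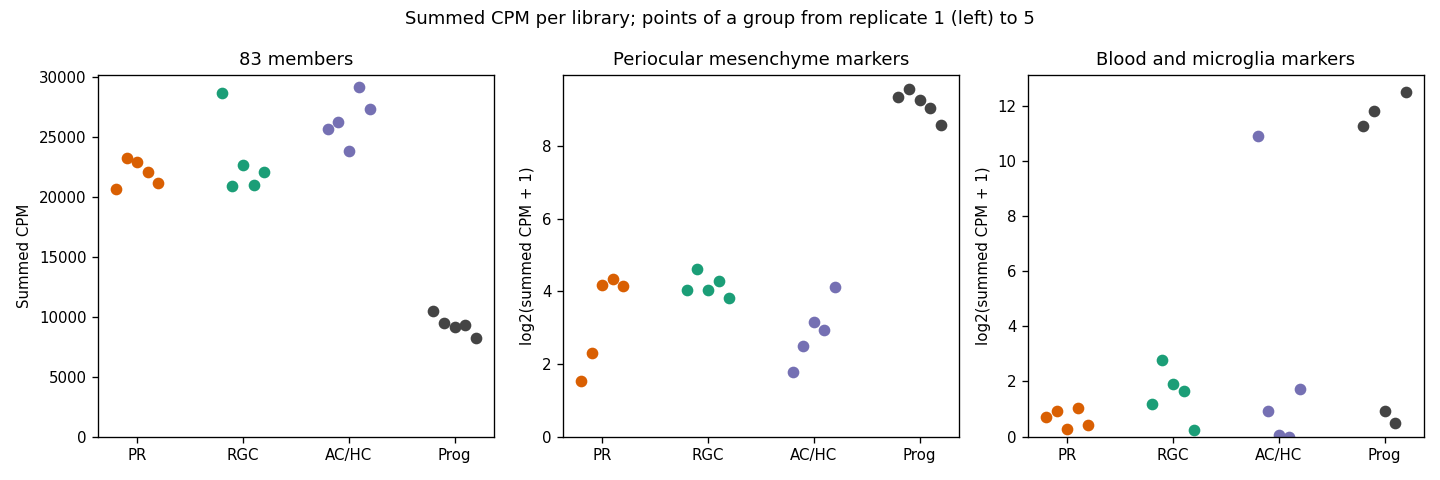
Summed CPM per library of the 83 genes (linear axis) and, as log2(summed CPM + 1), of 21 periocular mesenchyme markers and 7 blood and microglia markers, in photoreceptors (PR), retinal ganglion cells (RGC), amacrine/horizontal cells (AC/HC) and progenitors (Prog). The mesenchyme sum is high in all 5 progenitor libraries, and the blood sum in progenitor replicates 1, 2 and 5 and amacrine/horizontal replicate 1.

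Lists of genes with known neuronal functions show how the 83 genes sit within those functions. The lists held 270 genes, of which 252 were found, 205 were tested and 7 were members (STMN1, gap43, DPYSL5, MLLT11, tuba1c, atp1a3a and ATP1B2). Against progenitors, edgeR's test called 36 list genes higher and 8 lower in photoreceptors, 44 higher and 1 lower among retinal ganglion cells, and 75 higher and 3 lower in amacrine/horizontal cells. The lists took in the 7 members and the list genes that met both limits of the rule and were then left out. Those genes were chosen by this same contrast, and counts without them are not given here. Of all genes tested, 5.19% passed for photoreceptors (3.14% higher and 2.05% lower than in progenitors), 2.88% for retinal ganglion cells (1.99% and 0.889%) and 11.1% for amacrine/horizontal cells (5.61% and 5.51%). The 1 gene lower in retinal ganglion cells was lost when any 1 of 14 of the 20 libraries was left out.

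By function, the genes higher than in progenitors were counted in each neuron group. For the 7 members among them this is the contrast by which they were chosen, so their calls carry no support. The same holds for list genes that met both limits of the rule and were then left out. These were vamp2, sncb, SNAP25, crx (on chromosome 5), six7, NR2E3, NEUROD1 and LHX9. Of 36 genes of the cytoskeleton and axon growth, 5 were higher in photoreceptors, 12 among retinal ganglion cells and 16 among amacrine/horizontal cells, and STMN1, gap43, DPYSL4, DPYSL5 and MLLT11 were higher in all 3. Of 33 genes of vesicle release, 10, 7 and 13 were higher in the same order of groups, and vamp2, SNAP25, syt5b, SYT11 and sncb were among those higher in all 3. None of these 5 was a member: vamp2 and sncb were left out as highest in amacrine/horizontal cells and SNAP25 by name. Of 19 genes of membrane excitability, 4, 2 and 8 were higher, and of 44 transcription factors of differentiation 9, 16 and 23 were higher, with 7 of the 44 lower in photoreceptors. Of 28 genes of adhesion and guidance 3, 2 and 4 were higher, of 18 genes of cell cycle exit 3, 4 and 5, of 12 genes of regulated secretion 2, 0 and 1. Whether these counts differ between groups was not tested.

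The 15 tested genes of neuronal RNA-binding proteins included 0 members. In that list 0 genes were higher in photoreceptors than in progenitors, against 1 among retinal ganglion cells and 5 among amacrine/horizontal cells. ELAVL3, an RNA-binding protein widely used as a marker of neurons and named after its values were seen, averaged 62.1 ± 97.2 CPM in photoreceptors, 391 ± 221 among retinal ganglion cells, 708 ± 156 among amacrine/horizontal cells and 34.9 ± 28.8 among progenitors (SD, n = 5 each). Its lowest neuron library had 1.27 CPM, below the highest progenitor library at 82.4 CPM, so that it was not one of the 83 genes.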

How the data were processed

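Polyadenylated RNA of 20 libraries, 5 per sorted group, was measured by SmartSeq-2. The authors deposited a table of raw read counts per gene with no normalization, made with featureCounts on GRCz11 and the exon records of Ensembl release 95, with strand ignored and a mapping quality of at least 1, per the file headers. The submitters' processing notes name bcl2fastq 2.19.1, GSNAP and featureCounts 1.6.3. The deposited table also gives a summed exon length per gene, used for CPM per kilobase. Reads of near-identical genes (tubulins, histone H3.3, miR-124 loci) and of genes with overlapping exons (13 of the 83, 6 of them with a gene of at least 1 CPM) can be misassigned or lost. Symbols came from a table that matched 29201 of 32520 genes, and zebrafish names from the RefSeq table of assembly GRCz12tu. Coordinates are those of the deposited table.

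CPM were computed from the counts and the totals over Ensembl genes. edgeR 4.0.16 in R 4.3.3 kept 13838 genes with filterByExpr, scaled libraries by TMM and fitted 1 mean per group over all 20 libraries. Log2 fold changes were tested with the quasi-likelihood test (2-sided), and p-values were adjusted by Benjamini and Hochberg over those genes, with a threshold of 0.05. The scripts were tested on simulated data. The labels do not say whether replicates came from separate clutches, so p-values measure only the spread between these samples. Same-numbered libraries of different groups deviated from their group means with correlations of -0.06 to 0.15 (median 0.03, 30 pairs). For libraries of other numbers the correlations were -0.09 to 0.08 (median -0.006, 120 pairs). The labels do not say what a number marks, so the main fit did not pair samples by it. These values do not show that same-numbered libraries are independent.

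The members, the function and marker lists, the roles and the alternatives were chosen with earlier results of these data known. Named genes were the 5 most abundant per exon length, the 8 with the widest gap, up to 3 per direction with the largest change in each comparison among neuron groups, up to 4 per function list, those nearest to the limits of the rule and the 3 most even among neurons. Other genes named are said to have been chosen after their values were seen. Results of a few genes that enter the counts are not reported here. Alternatives were DESeq2 1.42.0, limma 3.58.1 (voom), other size factors, no filter, only the groups compared, the replicate number or the range of the library's track number as a covariate, leaving out each library, and other limits of the rule.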

Additional observations from a re-analysis of the deposited data

Results flagged for a closer look

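In each group of 5 libraries, the CPM of the 29 genes named by rule was examined for 1 library standing apart from the other 4, by Dixon's criterion at the 95% level. For normally distributed values chance alone flags about 1 in 20 groups, and 9 of 116 were found. Whether the CPM are so distributed was not tested, and several progenitor values were at or near 0. The 9 are therefore not read against that rate. In progenitors, CKB had 236.7 CPM in replicate 4, where the other 4 libraries had 81.66 to 118.8. CRX had 15.09 CPM in progenitor replicate 1, where the others had 3.833 to 6.887, and gap43 had 9.035 CPM in the same library, where the others had 0.3316 to 1.795. PANX1 had 1.282 CPM in progenitor replicate 5, where the others had at most 0.0327, and si:dkey-56f14.7 had 4.545 CPM in progenitor replicate 2, where the others had 0. The only low value among progenitors was that of kat7a, 0.8425 CPM in replicate 5, where the others had 11.45 to 14.44. Among neurons, NDRG1 had 203.1 CPM in photoreceptor replicate 1, where the others had 348.7 to 393.7. In retinal ganglion replicate 1, SCML2 had 771.6 CPM, where the others had 486.9 to 532.9, and LDB1 had 1045 CPM, where the others had 624.2 to 704.7. That library also had the largest summed share of the 83 genes in its group, 2.87% of its counts.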

How the results depend on the processing

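Of 26 tests of single members past the threshold, 13 stayed past it in each of the 27 alternatives and 0 reversed. Of 14 tests of named members that missed it, 10 passed it in at least 1 alternative, and CKB, near 0 for photoreceptors against amacrine/horizontal cells, changed sign to a log2 fold change of 0.0631 with the track range as a covariate and ranged from -0.2982 to 0.0679 with 1 library left out, without passing. Shares of all genes under each alternative are not given here, so the counts below are not read as particular to the members. The counts of members called moved as follows, and the cause was not tested. For photoreceptors against retinal ganglion cells, 5 members became 10 with DESeq2, 11 with limma voom and 13 with only the groups compared, and 2 to 8 with 1 library left out. For photoreceptors against amacrine/horizontal cells, 21 became 13 with no low-count filter, which tests more genes, 16 with only the groups compared, 26 with DESeq2 and 31 with limma voom, and 13 to 22 with 1 library left out. For retinal ganglion cells against amacrine/horizontal cells, 0 became 13 with DESeq2, 7 with limma voom and 1 with only the groups compared, and 0 to 3 with 1 library left out. For any difference among neuron groups, 15 became 31 with DESeq2 and 33 with limma voom, and 9 to 20 with 1 library left out. Among list genes against progenitors, DESeq2 called 17 lower in photoreceptors (8 with edgeR), 69 higher in retinal ganglion cells (44) and 5 lower in amacrine/horizontal cells (3), and the 1 gene lower in retinal ganglion cells ranged from 0 to 1 with 1 library left out. With the replicate number as a block, the members called were 6, 22, 0 and 16 in the same order of comparisons, 0 list genes were lower in retinal ganglion cells, and H3-3B (adjusted p = 0.0431) and MYCL (0.016) passed for photoreceptors against amacrine/horizontal cells. Same-numbered libraries correlated above 0.1 in 2 of 30 pairs and libraries of other numbers in 0 of 120. The labels do not say what a number marks, and these values do not show that same-numbered libraries are independent. The rule found 79 to 98 members under its other limits, 88 with TMM-scaled totals (71 of them shared) and 82 to 124 with 1 library left out.

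Narrow gaps limit the choice of members: a change of 1 library or of the scaling moves genes in or out, and 500 cells per library limit low genes. Totals of 21.2 to 30.8 M (1e+06) counts do not measure the number of molecules sampled.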

Other observations

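Members not yet described included 2 genes for zinc finger proteins of the CXXC type, which act in Wnt signalling and bind unmethylated CpG. CXXC4 averaged 32.9 ± 7.28 CPM in photoreceptors, 28.2 ± 9.77 among retinal ganglion cells, 63.6 ± 28.5 among amacrine/horizontal cells and 7.23 ± 5.58 among progenitors (SD, n = 5 each), and cxxc5b averaged 34.7 ± 22.4 CPM in photoreceptors, 24.3 ± 3.72 among retinal ganglion cells, 47.9 ± 25 among amacrine/horizontal cells and 5.87 ± 4.75 among progenitors. Both were highest in amacrine/horizontal cells by their means, with overlapping groups, and the log2 fold changes of photoreceptors against amacrine/horizontal cells were -1.21 (SE 0.65, adjusted p = 0.278) and -0.55 (SE 0.55, adjusted p = 0.635) by edgeR's quasi-likelihood test. MYCL (myclb), of the Myc family of transcription factors, ran the other way, with 179.9 ± 62.4 CPM in photoreceptors, 146 ± 34.8 among retinal ganglion cells, 86.3 ± 26.8 among amacrine/horizontal cells and 27.3 ± 7.88 among progenitors and a log2 fold change of 0.81 (SE 0.31, adjusted p = 0.111) by the same test, which passed without amacrine/horizontal replicate 1 (adjusted p = 0.0101), with DESeq2 (0.0307) and with limma voom (0.04). ACVR1B (acvr1ba), a type I receptor for activin and Nodal ligands, was nearly even among neurons, at 456 ± 93.4 CPM in photoreceptors, 432 ± 83.4 among retinal ganglion cells, 386 ± 115 among amacrine/horizontal cells and 147 ± 38.7 among progenitors. CNRIP1 (cnrip1a), which binds the cannabinoid receptor CB1, averaged 60.1 ± 9.06 CPM in photoreceptors, 38 ± 14 among retinal ganglion cells, 83.7 ± 34.5 among amacrine/horizontal cells and 9.91 ± 4.84 among progenitors. FLOT1 (flot1a), a flotillin of membrane microdomains, averaged 28.6 ± 5.78 CPM in photoreceptors, 21.4 ± 6.41 among retinal ganglion cells, 58.8 ± 24.2 among amacrine/horizontal cells and 4.58 ± 4.26 among progenitors, and 2 of its progenitor libraries were at 0. These genes were chosen after their values were seen, and 0 of the comparisons among neuron groups passed for them by edgeR's test with all libraries.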
